A study of Homo sapiens with 8 samples.

Results

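Antisense transcripts are RNAs read from the DNA strand opposite to a gene. Many start at the promoter of a protein-coding gene and run away from it, others lie inside the introns or cross the exons of that gene, and several are known to recruit or block chromatin-modifying enzymes at the locus where they are made. LSD1 (encoded by KDM1A) removes methyl groups from lysines 4 and 9 of histone H3, and G9a (encoded by EHMT2) adds them to lysine 9, so both act on marks found at promoters and in silenced chromatin. Described here are the antisense transcripts expressed in Kyse510, an established human esophageal squamous cell carcinoma (ESCC) line, each beside the protein-coding gene on the opposite strand.

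The transcripts were chosen by annotation and level. A gene was taken when its type was antisense in the knockdown table, when it was listed in both deposited tables, and when it reached at least 3 FPKM (fragments counted per gene, normalised for gene length and sequencing depth) in at least 1 of the 8 libraries. This gave 225 of the 2689 antisense genes listed in both tables, among 26360 genes in all. IGFL2-AS1 was to be left out, but both tables list it as a lincRNA (a long RNA lying between genes), so its exclusion removed nothing. The inhibitor table writes the type differently and lists 223 of the 225 as antisense RNA and 2 as lincRNA. Because the level that chose a transcript came from the libraries that are compared, a transcript that passed only through a library in which it was high had to differ there: 77 of the 225 reached 3 FPKM in only 1 library and 24 reached it in all 8. The folds and counts over the 225 are therefore given as descriptions. The nearest transcripts above the threshold were AC114956.1, AL357033.4 and AC002128.2, with highest values of 3.01, 3.07 and 3.07 FPKM, and the nearest below were AC114489.1, AC040970.1 and AL160006.1, with 2.9995, 2.997 and 2.98 FPKM.

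Each condition had 1 library. In the pharmacological arm, Kyse510 cells received vehicle (DMSO), 7 µM SP2509 (an LSD1 inhibitor), 7 µM UNC0642 (a G9a inhibitor), or SP2509+UNC0642 (the combination, or both), whose doses are not given separately. Treatment lasted 2 days. The genetic arm used lines with a doxycycline (Dox)-inducible hairpin, shLSD1 or shG9a, which were selected with puromycin for 14 days and kept without Dox or given Dox for 2 days. Every inhibitor library was set against the same vehicle library, so those 3 comparisons share a control, and each knockdown was set against its own line without Dox, so Dox itself cannot be told apart from the hairpin. None of these differences has a replicate check.

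The libraries held 15662035 to 17889466 reads, as recovered from the FPKM values. KDM1A went from 26.0 to 6.29 FPKM with Dox in the shLSD1 line, and EHMT2 from 7.85 to 4.76 FPKM in the shG9a line. The 7 squamous markers summed to between 541 and 4893 FPKM per library, mostly KRT17 and KRT5. The 6 markers of other cell types summed to between 3.36 and 6.60 FPKM, mostly COL1A1, with the leukocyte marker PTPRC at 0.0425 FPKM or less. Not every squamous marker was high. With vehicle, KRT14 had 1.93 and KRT6A 0.676 FPKM, below COL1A1 with 2.96 FPKM. KRT5, KRT17, PERP, TP63 and DSG3 had 427, 324, 140, 79.1 and 28.6 FPKM there. With each inhibitor treatment KRT14 and KRT6A were above COL1A1. In the knockdown libraries they were below it, except KRT14 in the shG9a line with Dox. Antisense genes of any level took 0.320% of the reads with vehicle, against 0.198% with SP2509, 0.289% with UNC0642 and 0.309% with both. They took 0.266% and 0.302% in the shLSD1 line without and with Dox, and 0.238% and 0.305% in the shG9a line. The use of strand in counting is not given in the sources used here, so reads from an antisense transcript and from its partner cannot be told apart where their exons overlap.

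A partner was the protein-coding gene on the opposite strand that shared the most bases with the transcript and reached at least 1 FPKM in at least 1 library. It was found for 150 transcripts, with 143 different partners, since 13 transcripts shared 6 of them (ALDH1A3, BCAN, BNIP3, NFE2L2, PPFIA1 and SELENOO). By their positions, 79 transcripts lay inside their partner, 39 were head-to-head (they overlapped at the start of both genes), 30 were tail-to-tail (they overlapped at the ends), and 2 surrounded the partner. In GENCODE 44, the transcript's exons overlapped exons of the partner in 85 pairs and lay within its introns in 49. The other 75 transcripts had no such partner. Of these, 22 overlapped a listed coding gene that stayed under 1 FPKM, and 28 had the start of an opposite-strand coding gene within 1000 bases.

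The transcripts were low and mostly short. Their annotated span had a median of 3112 bases (282 to 259714), and the highest value over the 8 libraries had a median of 5.51 FPKM, with 49 of 225 at 10 FPKM or more. The largest value was 91.6 FPKM, for AP002387.1 in the shG9a line with Dox. The median transcript had 42 reads with vehicle and 23 with SP2509. Partners were higher, with a median of 10.6 FPKM against 3.06 FPKM for the antisense transcripts of the same 150 pairs with vehicle, and the antisense transcript was the higher of the pair in 28 of 150. Levels of the 2 genes of a pair were only weakly ranked alike across the 150 pairs (Spearman rho between 0.01 and 0.26 in the 8 libraries, a description over pairs that share a library).

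**Figure D1:**
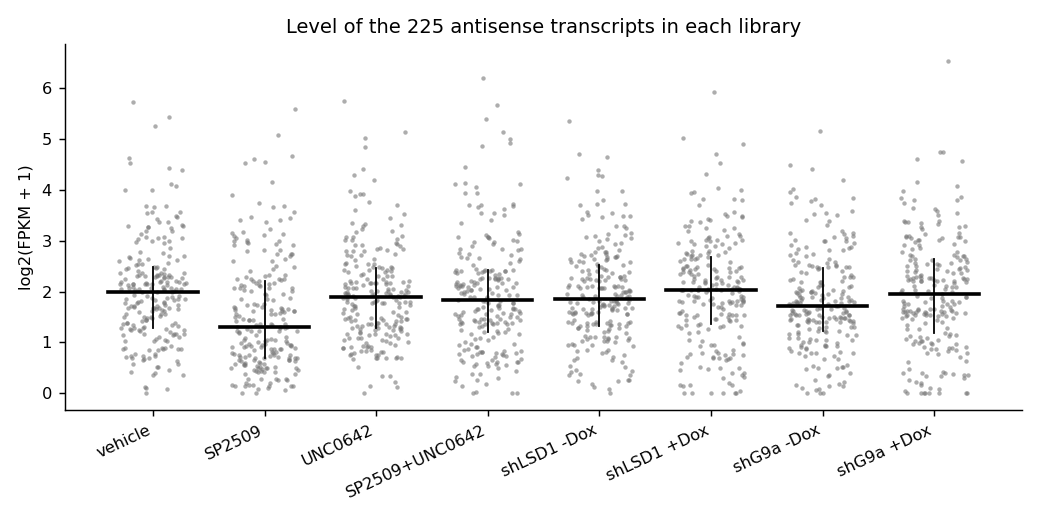
Level of each of the 225 antisense transcripts (grey points) in the 8 libraries, as log2(FPKM + 1), with the median (thick line) and the middle range from the lower to the upper quartile (thin line). The median is lowest with SP2509, at 1.47 FPKM, and highest in the shLSD1 line with Dox, at 3.11 FPKM.

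The 6 transcripts with the highest median level were AP002387.1, DLGAP1-AS2, AP002478.1, DLGAP1-AS1, AC005288.1 and AC099850.3. AP002387.1 (chromosome 11, 71448674 to 71452157, plus strand, GRCh38) lies, by the deposited span, within introns of DHCR7, which encodes the last enzyme of cholesterol synthesis. The RefSeq start of DHCR7 nearest the deposited start lies 3857 bases from it, within the span of AP002387.1. AP002387.1 had 51.9 FPKM with vehicle, against 24.2 with SP2509, 52.8 with UNC0642 and 72.0 with both. With Dox it went from 39.7 to 59.8 FPKM in shLSD1 cells and from 34.8 to 91.6 FPKM in the shG9a line. DHCR7 itself stood between 497 and 837 FPKM. AC099850.3, opposite PRR11, a gene linked to the cell cycle, was at 41.8 FPKM with vehicle and 11.3 with the combination, while PRR11 was at 15.8 and 3.67 FPKM. All exon bases of AC099850.3 and of MID1IP1-AS1 lie within exons of their partner in GENCODE 44, and these pairs are the least separable without strand.

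DLGAP1-AS2, DLGAP1-AS1 and AP002478.1 lie side by side on the plus strand of chromosome 18, from 3593732 to 3656282, with no partner that reached 1 FPKM, and they did not change alike. DLGAP1-AS2 had 37.0 FPKM with vehicle, against 1.75 with SP2509, 17.3 with UNC0642 and 29.2 with both. DLGAP1-AS1 had 23.6, 10.9, 27.6 and 28.2 FPKM in the same libraries, and AP002478.1 had 20.01, 3.94, 31.4 and 40.8 FPKM. SP2509 thus had the lowest value of all 3 transcripts in the inhibitor arm. With Dox in the shG9a line, DLGAP1-AS2 went from 21.5 to 12.9 FPKM while DLGAP1-AS1 went from 12.7 to 25.8 and AP002478.1 from 17.2 to 23.4 FPKM.

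A transcript was called when (FPKM + 1) differed from its control by at least 1.3 times and the exact binomial test of its reads, adjusted over 11009 genes with at least 3 FPKM in at least 1 library, fell under 0.05. This scale understates the change of low genes, and the test compares 2 libraries, not 2 conditions. With SP2509, 42 of 225 transcripts were called higher and 125 lower, that is 18.7% and 55.6%, beside 18.6% and 36.9% of all genes. The median log2 fold change was -0.63 over the antisense transcripts and -0.19 over all genes. Of 266 lincRNAs, 48 were called higher and 132 lower (18% and 49.6%). Among transcripts whose highest value lay between 3 and 10 FPKM, 99 of 176 were lower (56.3%), beside 39.5% of protein-coding genes in that range, and from 10 FPKM upward 26 of 49 were lower (53.1%), beside 35.3%. LincRNAs were lower in 52.4% of the lower range, and from 10 FPKM upward in 39.7%, with 41.4% higher. With no minimum the share lower was under that of all genes, since 438 of all 2689 antisense genes were lower with SP2509 (16.3%), beside 21.6% of 26360 genes. The share higher was under it as well (137 genes, 5.1%, beside 9.61%), so antisense genes were less often called in either direction. The medians were then -0.063 over antisense genes and -0.050 over all genes.

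The same count was taken with members that the inhibitor libraries did not choose. Of the 157 antisense transcripts that reached 3 FPKM in the knockdown table, 99 were lower with SP2509 and 13 were higher (63.1% and 8.28%). Protein-coding genes chosen in that way were lower in 38.1% and higher in 17.1%, and lincRNAs in 59.6% and 13.1%. No knockdown library received SP2509, so this choice leaves out transcripts that were high only with SP2509. That favours a larger share lower and a smaller share higher, for the other gene classes too. The choice was added after the data were seen, and the shares are descriptions of these libraries.

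**Figure D2:**
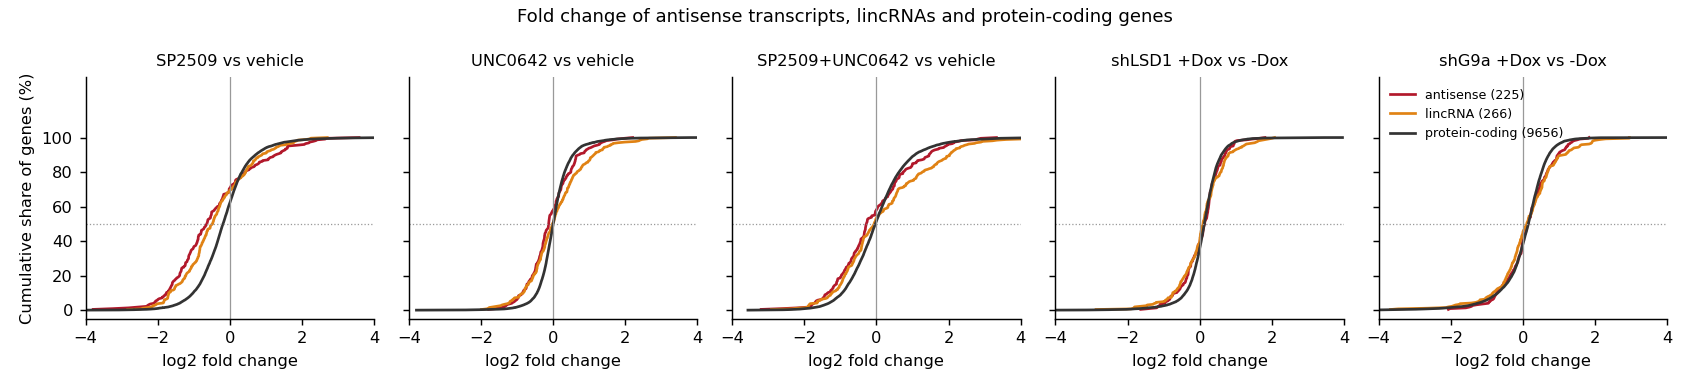
Cumulative share of genes (percent) against the log2 fold change of (FPKM + 1) in each comparison, for 225 antisense transcripts, 266 lincRNAs and 9656 protein-coding genes with at least 3 FPKM in at least 1 library. The horizontal axis holds every antisense value, and some values of the other classes lie beyond its ends. The antisense curve lies to the left of the protein-coding curve with SP2509 over most of its height (median -0.63), and the curves lie close together in both knockdown comparisons.

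With UNC0642, 36 transcripts were called higher and 49 lower (16.0% and 21.8%), beside 16.3% and 13.5% of all genes. With the combination, 63 were higher and 81 lower (28.0% and 36.0%), beside 28.4% and 30.2%. Of the 49 transcripts that reached 10 FPKM, 16 were higher and 16 lower (32.65% each), beside 31.7% and 29.1% of all genes at that minimum. In the genetic arm the shares at this threshold were close to those of all genes. In the shLSD1 line, Dox was accompanied by 47 higher and 23 lower transcripts (20.9% and 10.2%, beside 22.3% and 10.7%), and in the shG9a line by 61 higher and 31 lower (27.1% and 13.8%, beside 29% and 16.9%). Median log2 fold changes were -0.12, -0.28, 0.14 and 0.14 in these 4 comparisons, against 0.00, -0.03, 0.12 and 0.14 over all genes. The positive medians of the knockdown comparisons thus came with a shift of all genes, and once the ratios were centred on genes at 5 FPKM or more on each side they were 0.03 and 0.00. By the fold alone, without the read test, 48 transcripts were higher and 133 lower with SP2509 (21.3% and 59.1%, beside 19.6% and 38% of all genes). It was 51 and 68 with UNC0642 (22.7% and 30.2%, beside 17.9% and 15%), and 72 and 93 with the combination (32% and 41.3%, beside 29.6% and 31.7%). In the shLSD1 line it was 57 and 39 (25.3% and 17.3%, beside 23.5% and 12%), and in the shG9a line 73 and 42 (32.4% and 18.7%, beside 30.6% and 18.3%). At a fold of 2 the share higher in the shG9a line was 9.33%, beside 4.01%, and the share lower 3.56%, beside 5.9%.

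With Dox, 25 transcripts were called higher in both lines (11.1%, beside 12.8% of all genes), 10 were lower in both (4.44%, beside 7.07%) and 5 were called in opposite directions (2.22%, beside 2.03%).

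Head-to-head transcripts had the largest share called lower with SP2509, 28 of 39 with 3 higher (71.8% and 7.69%). Of all genes, 36.9% were lower and 18.6% higher with SP2509. Transcripts inside their partner were lower in 36 of 79 and higher in 24 (45.6% and 30.4%). Tail-to-tail transcripts were lower in 13 of 30 and higher in 5 (43.3% and 16.7%), and transcripts without partner lower in 47 of 75 and higher in 10 (62.7% and 13.3%). With UNC0642 the head-to-head transcripts were lower in 15 and higher in 4 (38.5% and 10.3%, beside 13.5% and 16.3% of all genes). With the combination they were lower in 21 and higher in 7 (53.8% and 17.9%, beside 30.2% and 28.4%). In the shLSD1 line 13 were higher and 6 lower (33.3% and 15.4%, beside 22.3% and 10.7% of all genes), and in the shG9a line 15 were higher and 3 lower (38.5% and 7.69%, beside 29% and 16.9%), so that all genes too were more often higher than lower there. The arrangement follows the deposited spans. For partners with a transcript inside, the nearest RefSeq start can be close to the deposited one or far from it, as with 3 bases for HBP1 and 511726 for EGLN3. The differences between arrangements were not tested.

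**Figure D3:**
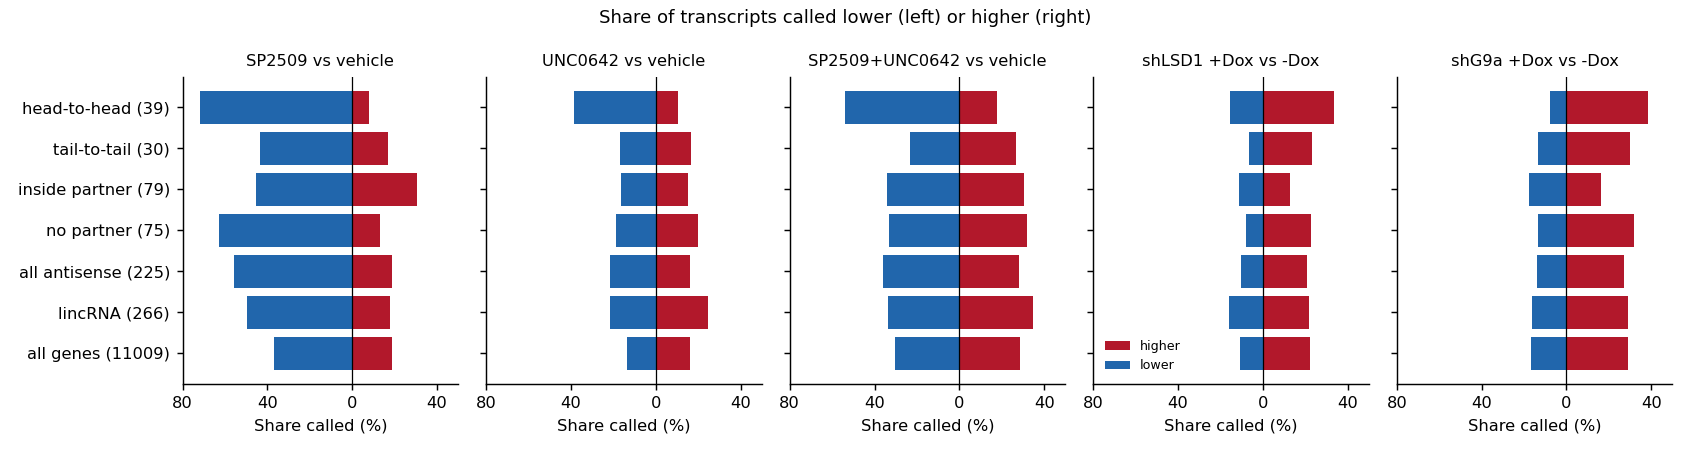
Share of transcripts (percent) called lower, drawn to the left, or higher, drawn to the right, in each comparison, by arrangement with the partner, with lincRNAs and all genes for reference and the number of genes in brackets. The 2 transcripts that surround their partner are not drawn as a group. Head-to-head transcripts have the longest bar to the left with SP2509 (28 of 39) and the longest bars to the right in both knockdowns (13 and 15 of 39).

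RefSeq promoter sequences (GRCh38, 250 bases before to 50 bases after a start) were matched by symbol for 55 of the 225 transcripts. They were searched on both strands for GGGCGG, the core of the GC box; for CCAAT; for TATAAA, the TATA box; and for TGATGNAA, a core shared by sites of the stress factors ATF4 and C/EBP. GGGCGG was found in 26 of 55 promoters (47.3%), beside 45.0% of all 35116 promoters in the table. CCAAT was found in 24 (43.6%, beside 34.6%), TATAAA in 5 (9.09%, beside 11.5%) and TGATGNAA in 1 (1.82%, beside 3.62%). None of the 17 head-to-head promoters in the table held TATAAA or TGATGNAA, and 9 held GGGCGG. A match is only a description of the letters in this window.

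Printed here are the promoters of 6 transcripts whose values are given in the text, with matches in capitals. TMEM147-AS1 (chr19:35545980-35546279, minus strand), ASH1L-AS1 (chr1:155561792-155562091, plus strand) and KMT2E-AS1 (chr7:105014092-105014391, minus strand) are head-to-head with TMEM147, ASH1L and KMT2E, and the window of KMT2E-AS1 shares 163 bases with that of KMT2E. COLCA1 (chr11:111304999-111305298, minus strand) is head-to-head with COLCA2. EGLN3-AS1 (chr14:34039731-34040030, plus strand) starts within the span that the deposited table gives EGLN3 but outside it by the RefSeq start of EGLN3, and DLGAP1-AS2 (chr18:3603487-3603786, plus strand) is the transcript that held TGATGNAA. The RefSeq start of DLGAP1-AS2 lies 737 bases, that of KMT2E-AS1 180 bases and that of EGLN3-AS1 116 bases from the start in the deposited table, and the other 3 lie within 3 bases of it.
TMEM147-AS1: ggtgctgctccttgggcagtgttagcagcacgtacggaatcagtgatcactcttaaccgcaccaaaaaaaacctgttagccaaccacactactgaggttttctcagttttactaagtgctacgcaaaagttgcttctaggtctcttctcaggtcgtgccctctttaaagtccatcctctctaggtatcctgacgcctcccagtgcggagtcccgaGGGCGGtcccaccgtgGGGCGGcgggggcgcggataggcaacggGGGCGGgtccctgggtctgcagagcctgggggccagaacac
ASH1L-AS1: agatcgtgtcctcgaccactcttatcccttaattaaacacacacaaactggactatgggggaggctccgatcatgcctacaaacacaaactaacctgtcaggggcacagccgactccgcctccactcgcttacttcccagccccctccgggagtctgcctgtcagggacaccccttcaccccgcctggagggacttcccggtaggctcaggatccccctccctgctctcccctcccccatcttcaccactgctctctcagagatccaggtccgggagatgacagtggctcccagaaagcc
KMT2E-AS1: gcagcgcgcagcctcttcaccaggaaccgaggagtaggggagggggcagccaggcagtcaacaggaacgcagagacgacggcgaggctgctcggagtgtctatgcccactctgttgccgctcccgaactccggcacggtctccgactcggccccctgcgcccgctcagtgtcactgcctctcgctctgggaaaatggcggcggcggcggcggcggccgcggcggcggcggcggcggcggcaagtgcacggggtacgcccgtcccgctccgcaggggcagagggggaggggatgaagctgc
COLCA1: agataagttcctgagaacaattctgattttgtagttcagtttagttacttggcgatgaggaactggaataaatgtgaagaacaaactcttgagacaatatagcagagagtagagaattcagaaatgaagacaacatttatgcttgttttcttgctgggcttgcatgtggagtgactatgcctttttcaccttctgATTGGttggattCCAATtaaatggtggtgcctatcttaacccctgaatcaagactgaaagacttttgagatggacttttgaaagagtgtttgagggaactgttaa
EGLN3-AS1: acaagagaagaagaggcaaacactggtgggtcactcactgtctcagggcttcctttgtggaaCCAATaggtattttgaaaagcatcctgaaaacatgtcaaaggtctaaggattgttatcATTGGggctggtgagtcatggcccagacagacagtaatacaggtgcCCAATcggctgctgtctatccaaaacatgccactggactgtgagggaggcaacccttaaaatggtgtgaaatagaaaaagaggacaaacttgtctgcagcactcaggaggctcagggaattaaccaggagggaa
DLGAP1-AS2: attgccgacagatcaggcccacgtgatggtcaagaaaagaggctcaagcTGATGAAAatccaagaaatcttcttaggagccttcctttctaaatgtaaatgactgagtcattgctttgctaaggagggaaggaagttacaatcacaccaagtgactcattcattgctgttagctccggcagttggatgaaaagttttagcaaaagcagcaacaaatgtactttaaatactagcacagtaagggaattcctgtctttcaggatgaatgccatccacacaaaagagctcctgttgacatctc

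These promoters differ in content: that of TMEM147-AS1 holds GGGCGG 3 times close to the start, those of COLCA1 and EGLN3-AS1 hold CCAAT 2 and 3 times with no GGGCGG, and those of ASH1L-AS1 and KMT2E-AS1 hold none of the letters searched. TMEM147-AS1, ASH1L-AS1 and KMT2E-AS1 were all lower with SP2509. TMEM147-AS1 had 4.13 FPKM with vehicle, against 0.197 with SP2509, 2.83 with UNC0642 and 2.16 with both, and went from 1.97 to 2.97 FPKM with Dox in shLSD1 cells and from 1.46 to 4.63 FPKM in the shG9a line. Its reads with SP2509 were 17 against 314 with vehicle, a ratio of 0.0476 after scaling to the library totals (95% Clopper-Pearson interval 0.0274 to 0.0775, counting error only, as for every interval given). TMEM147 itself went from 30.1 to 18.8 FPKM with SP2509 and from 30.1 to 39.7 FPKM with UNC0642, so that with UNC0642 the pair was called in opposite directions. ASH1L-AS1, opposite the histone methyltransferase gene ASH1L, had 4.81, 0.697, 3.19 and 3.58 FPKM in the inhibitor libraries in the same order, and went from 1.63 to 4.11 and from 1.75 to 5.54 FPKM with Dox in the shLSD1 and shG9a lines. ASH1L went from 16.3 to 8.74 FPKM with SP2509 and was not called in either knockdown. KMT2E-AS1, opposite KMT2E, which encodes a SET domain protein, had 3.90, 1.45, 2.51 and 2.17 FPKM in the inhibitor libraries and differed between the knockdowns, from 4.44 to 2.25 FPKM with Dox in shLSD1 cells and from 2.38 to 4.94 FPKM in the shG9a line. KMT2E stayed between 4.46 and 9.08 FPKM.

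Among the transcripts most increased with SP2509, those described here lay at partners that were called higher as well. AC015712.7, within an intron of ALDH1A3, a retinaldehyde dehydrogenase gene (chromosome 15, 100888472 to 100889106, minus strand), had 1.81 FPKM with vehicle, against 32.7 with SP2509, 6.25 with UNC0642 and 2.71 with both. It stood at 2.04 and 0.720 FPKM without and with Dox in the shLSD1 line and at 1.71 and 0.546 FPKM in the shG9a line. Its 370 reads with SP2509 against 18 with vehicle gave a read ratio of 18.1 (11.3 to 30.9). The SP2509 library alone stood far above the others, whereas ALDH1A3 had 22.0 FPKM with vehicle, against 45.5 with SP2509, 46.8 with UNC0642 and 45.5 with both.

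AL357060.1 is head-to-head with TNFAIP3, which encodes the NF-kappaB inhibitor A20. It went from 0.656 FPKM with vehicle to 9.55 with SP2509, 4.68 with UNC0642 and 3.81 with both, and stayed at or below 0.385 FPKM in the genetic arm. TNFAIP3 went from 27.9 to 365, 101 and 68.8 FPKM in the same order. In the shLSD1 line TNFAIP3 went from 86.6 to 13.1 FPKM with Dox, and AL357060.1 was at 0.276 and 0.238 FPKM there, too low to follow.

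SERTAD4-AS1, head-to-head with SERTAD4, went from 0.318 to 6.04 FPKM with SP2509 on 5 and 108 reads, and from 2.41 to 0.288 FPKM with Dox in the shG9a line. SERTAD4 went from 0.876 to 3.80 FPKM with SP2509. AC008966.2, in an intron of the integrin gene ITGA2, went from 0.282 to 5.70 FPKM with SP2509 on 2 and 46 reads, a ratio of 20.2 (5.29 to 172). ITGA2 went from 12.0 to 96.3 FPKM.

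The largest decreases with SP2509 were those of DLGAP1-AS2, AL391427.1, WNT5A-AS1, AC137932.1 and AC034231.1. DLGAP1-AS2 had 99 reads with SP2509 and 1839 with vehicle, a read ratio of 0.0474 (0.0383 to 0.0580). AL391427.1 lies within an intron of AKR1C2, an aldo-keto reductase gene that acts on steroids. It had 20.5 FPKM with vehicle, against 1.28 with SP2509, 6.61 with UNC0642 and 1.35 with both, while AKR1C2 had 205, 17.2, 96.5 and 32.7 FPKM. Both genes of this pair were thus highest with vehicle and lowest with SP2509 in the inhibitor arm.

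WNT5A-AS1 (chromosome 3, 55487699 to 55488308, plus strand) lies, by the deposited span, in an intron of the gene for the Wnt ligand WNT5A. The RefSeq start of WNT5A nearest the deposited start lies 3194 bases from it, and WNT5A-AS1 lies outside the gene by that start. The transcript had 6.77 FPKM with vehicle, against 0.112 with SP2509, 4.58 with UNC0642 and 0.711 with both. It was also lower with Dox in both lines, from 5.86 to 2.51 FPKM in shLSD1 cells and from 4.47 to 0.346 FPKM in the shG9a line. The SP2509 value rests on 1 read against 53 with vehicle. WNT5A went from 29.3 to 1.44 FPKM with SP2509, from 12.4 to 8.27 FPKM in shLSD1 cells and from 16.9 to 3.33 FPKM in the shG9a line. AC137932.1, in an intron of the chromatin regulator gene ANKRD11, went from 10.003 to 0.869 FPKM with SP2509 and was at 1.17 FPKM or less in the genetic arm. AC034231.1, without partner, went from 8.56 to 0.941 FPKM.

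With UNC0642, the largest increases were those of EGLN3-AS1, LUCAT1, AL357060.1, AL365181.3 and AC093673.1. EGLN3-AS1 lies, by the deposited span only, within an intron of EGLN3, a prolyl hydroxylase that marks HIF proteins for degradation. The transcript had 0.829 FPKM with vehicle, against 0.365 with SP2509, 7.44 with UNC0642 and 2.12 with both, on 4, 2, 41 and 11 reads. It was at 0.183 FPKM in the shLSD1 line without Dox and at 0 in the other 3 knockdown libraries, although EGLN3 itself went from 111 to 16.5 FPKM and from 107 to 4.94 FPKM there. EGLN3-AS1 thus reached 3 FPKM only with UNC0642 and was chosen through that library, so it had to be high there. LUCAT1, a long RNA without partner (chromosome 5, 91054834 to 91314547, minus strand), went from 1.39 FPKM with vehicle to 8.35 with UNC0642 and 7.69 with the combination, and to 0.503 with SP2509. With Dox it went from 1.35 to 0.397 FPKM in shLSD1 cells and from 1.06 to 0.0594 FPKM in the shG9a line. AL365181.3, inside BCAN, had 4.003, 1.73, 14.7 and 34.0 FPKM with vehicle, SP2509, UNC0642 and the combination, and stood above BCAN, which did not exceed 3.52 FPKM. AC093673.1, without partner, had 2.27, 3.73, 8.11 and 15.6 FPKM.

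The largest decreases with UNC0642 were in COLCA1, AL033397.2, AL391427.1, AL157871.2 and AC019080.3. COLCA1 (chromosome 11, 111290787 to 111305045, minus strand) had 2.76 FPKM with vehicle, against 0.116 with SP2509, 0.0896 with UNC0642 and 0.0204 with both, on 378, 18, 14 and 3 reads. In the genetic arm it had 2.22 and 1.98 FPKM in the shLSD1 line and went from 1.97 to 9.44 FPKM with Dox in the shG9a line, a read ratio of 4.78 (4.21 to 5.45). All 3 inhibitor libraries were thus below vehicle and the shG9a library with Dox was the highest of the 8. COLCA2, its partner, was at 2.36 FPKM with vehicle and at 0.627, 0.271 and 0 FPKM with the inhibitors, and it was not tested because it stayed under 3 FPKM in all 8 libraries. AL033397.2 went from 9.34 to 2.45 FPKM with UNC0642 beside GCLC, which makes the rate-limiting enzyme of glutathione synthesis and went from 77.9 to 20.9 FPKM. AL157871.2 went from 3.12 to 0.608 FPKM beside WARS, a tRNA synthetase gene that went from 47.5 to 15.9 FPKM. AC019080.3 went from 3.74 to 0.881 FPKM beside NFE2L2, which encodes the antioxidant regulator NRF2 and went from 43.2 to 27.2 FPKM.

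With the combination, the largest increase was that of AC089983.1, within an intron of the thioredoxin reductase gene TXNRD1 (chromosome 12, 104262314 to 104280722, minus strand). It had 4.01 FPKM with vehicle, against 6.49 with SP2509, 12.5 with UNC0642 and 49.4 with both, on 44, 81, 157 and 584 reads. The combination library gave a read ratio of 12.3 (9.06 to 17.1) and stood well above either inhibitor, while TXNRD1 went from 133 to 225 FPKM. In the shG9a line AC089983.1 went from 2.50 to 4.28 FPKM and TXNRD1 from 84.2 to 54.5 FPKM with Dox, in opposite directions. AP000695.1 had 1, 10, 18 and 105 reads with vehicle, SP2509, UNC0642 and the combination, and AC108673.2 had 3, 1, 8 and 76 reads.

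The largest decreases with the combination were those of AL391427.1, HOXC13-AS, WNT5A-AS1, COLCA1 and AC010275.1, the last of which went from 11.8 to 2.62 FPKM. HOXC13-AS is head-to-head with the homeobox gene HOXC13 (chromosome 12, 53935328 to 53939643, minus strand). It had 10.1 FPKM with vehicle, against 1.68 with SP2509, 4.57 with UNC0642 and 0.799 with both, and went from 5.52 to 21.9 FPKM with Dox in shLSD1 cells and from 4.94 to 16.7 FPKM in the shG9a line. The read ratios were 0.0791 (0.0467 to 0.126) with the combination, 3.96 (3.28 to 4.81) in the shLSD1 line and 3.37 (2.73 to 4.18) in the shG9a line. It was called in all 5 comparisons, lower with each inhibitor treatment and higher in each knockdown, and HOXC13 was called in the same directions, with 18.6 FPKM with vehicle, 6.01 with the combination, and 25.1 and 26.5 FPKM in the lines with Dox.

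**Figure D4:**
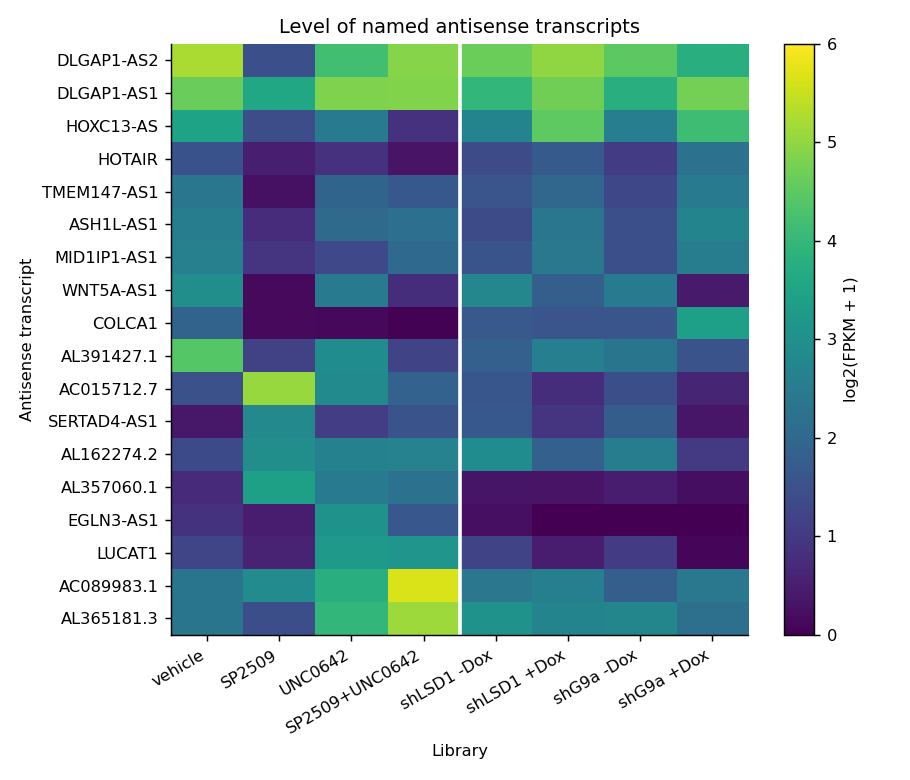
Level of 18 named antisense transcripts in the 8 libraries as log2(FPKM + 1), from dark (0) to bright (6), with the inhibitor libraries left of the white line and the knockdown libraries right of it. HOXC13-AS is darkest with the combination (0.799 FPKM) and brightest in the lines with Dox (21.9 and 16.7 FPKM), and AC015712.7 stands out with SP2509 (32.7 FPKM).

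In the shLSD1 line the 5 largest increases were those of HOXC13-AS, AL357992.1, TRIM31-AS1, LINC00525 and LINC00685. TRIM31-AS1, head-to-head with the ubiquitin ligase gene TRIM31, went from 1.95 to 7.07 FPKM in shLSD1 cells and from 0.881 to 3.68 FPKM in the shG9a line, and TRIM31 went from 8.25 to 42.8 and from 7.23 to 24.4 FPKM. LINC00525 went from 0.901 to 3.65 FPKM and LINC00685 from 1.18 to 3.47 FPKM, both without partner. AL357992.1, in an intron of UST, went from 0.433 to 3.51 FPKM on 1 and 8 reads, a ratio of 8.11 (1.09 to 360), the least certain of these. Among the largest decreases were those of AL591845.1 (7.51 to 1.74 FPKM), AL137003.1 (2.34 to 0.245), SNHG7 (18.2 to 7.39) and PCAT6 (18.5 to 7.77). AL591845.1 is head-to-head with EVA1B, which went from 7.16 to 1.98 FPKM.

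In the shG9a line, the largest increases were those of MAFA-AS1 (0.290 to 3.60 FPKM, 2 and 26 reads), COLCA1, HOXC13-AS, AL133338.1 (1.99 to 7.50 FPKM) and AC105118.1 (9 to 41 reads). The largest decreases were those of LINC01589 (6.29 to 0.738 FPKM), WNT5A-AS1, UNC5B-AS1 (15.2 to 4.41), AL162274.2 (4.73 to 1.04) and AC091588.1 (1.68 to 0). UNC5B-AS1 lies in UNC5B, a netrin receptor gene that went from 37.9 to 14.8 FPKM, and AC091588.1 in the transcription factor gene GATA6, which went from 5.72 to 1.48 FPKM.

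To see whether hairpin and inhibitor of the same enzyme moved the same transcripts, calls were set side by side. For LSD1, no transcript was higher in both (0 of 225, beside 2.23% of all genes) and 6 were lower in both (2.67%, beside 1.57%). In contrast, 38 were higher in the shLSD1 line with Dox and lower with SP2509 (16.9%, beside 12.9%), and 10 did the reverse (4.44%, beside 5.6%). The transcripts lower in both included WNT5A-AS1, AP001830.1, LUCAT1, AL137003.1 and KMT2E-AS1. AP001830.1, in an intron of TMEM123, went from 4.43 to 1.14 FPKM with SP2509 and from 10.7 to 5.45 FPKM in the shLSD1 line. HOXC13-AS, ASH1L-AS1 and AC132938.3 were among those higher in the knockdown and lower with the inhibitor, and AC132938.3, head-to-head with NARF, went from 2.96 to 6.64 FPKM with Dox and from 2.80 to 0.370 FPKM with SP2509.

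For G9a, 7 transcripts were higher in both (3.11%, beside 4.14%) and 6 were lower in both (2.67%, beside 3.52%). Among the former were AC016876.1, AC026740.1, AC089983.1, RUSC1-AS1 and TMEM132D-AS1. AC026740.1, without partner, went from 1.61 to 3.75 FPKM with UNC0642 and from 1.61 to 3.94 FPKM in the shG9a line. RUSC1-AS1, tail-to-tail with FDPS of the isoprenoid pathway, went from 3.56 to 5.96 FPKM with UNC0642 and from 3.18 to 6.22 FPKM with Dox. DLGAP1-AS2, AL391427.1, AL157871.2, AC107959.3 and AC139887.2 were among those lower in both. Opposite directions were seen in 14 transcripts higher in the knockdown and lower with UNC0642 (6.22%, beside 2.91%), COLCA1, HOXC13-AS and MID1IP1-AS1 among them, and in 12 of the reverse kind (5.33%, beside 5.93%). The shares of all 4 kinds for either enzyme are those of 2 libraries against 2 others and were not tested against the background.

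The pair of transcripts in BNIP3, a gene for a mitochondrial protein induced by low oxygen, moved together with it. AL162274.1 had 0.698, 3.63, 2.95 and 3.67 FPKM with vehicle, SP2509, UNC0642 and the combination, and AL162274.2 had 1.54, 6.77, 5.22 and 5.35 FPKM. BNIP3 had 23.8, 122, 62.9 and 129 FPKM. With Dox, AL162274.1 went from 1.39 to 0.104 FPKM in shLSD1 cells and from 1.54 to 0.158 in the shG9a line, AL162274.2 from 6.62 to 2.58 and from 4.73 to 1.04, and BNIP3 from 141 to 31.3 and from 129 to 27.2 FPKM. All 3 were thus above vehicle in every inhibitor library and below their control in both knockdowns. Both transcripts lie within introns of BNIP3 and share it as partner.

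Over the 150 pairs, the change of the antisense transcript and that of its partner were ranked alike to a moderate degree. Spearman's rho was 0.49 with SP2509, 0.61 with UNC0642, 0.53 with the combination, 0.36 in the shLSD1 line and 0.50 in the shG9a line, as a description over pairs from the same 2 libraries, 13 of whose transcripts share partners. It was lower for the 30 tail-to-tail pairs (0.24, 0.45, 0.14, 0.01 and 0.41) than for the 39 head-to-head pairs (0.50, 0.68, 0.64, 0.47 and 0.49) and for the 79 transcripts inside partners (0.55, 0.61, 0.55, 0.45 and 0.51). For the 85 pairs with exon overlap in GENCODE 44 it was 0.50, 0.67, 0.61, 0.24 and 0.40. In 14 pairs that share no exon bases and whose transcript is not inside the partner it was 0.23, 0.11, -0.14, 0.54 and 0.72. For the 49 transcripts within introns, whose exons share no bases with exons of the partner in GENCODE 44, it was 0.58, 0.60, 0.46, 0.45 and 0.54. Unspliced partner RNA would be counted there too if strand was not used, and its part in these values was not tested.

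Where both genes of a pair were called, they mostly had the same direction. How often unrelated genes did so was not counted. With SP2509 both were called in 60 pairs, 15 of them higher and 38 lower together and 7 opposite. With UNC0642 it was 32 pairs, 16 higher, 14 lower and 2 opposite, and with the combination 55 pairs, 25 higher, 23 lower and 7 opposite. In the shLSD1 line 25 pairs were called, 12 higher, 9 lower and 4 opposite, and in the shG9a line 38 pairs, 20 higher, 15 lower and 3 opposite. With SP2509, 110 of the paired transcripts were called, 45 of them where the partner was tested and not called and 5 where the partner stayed under 3 FPKM and was not tested.

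**Figure D5:**
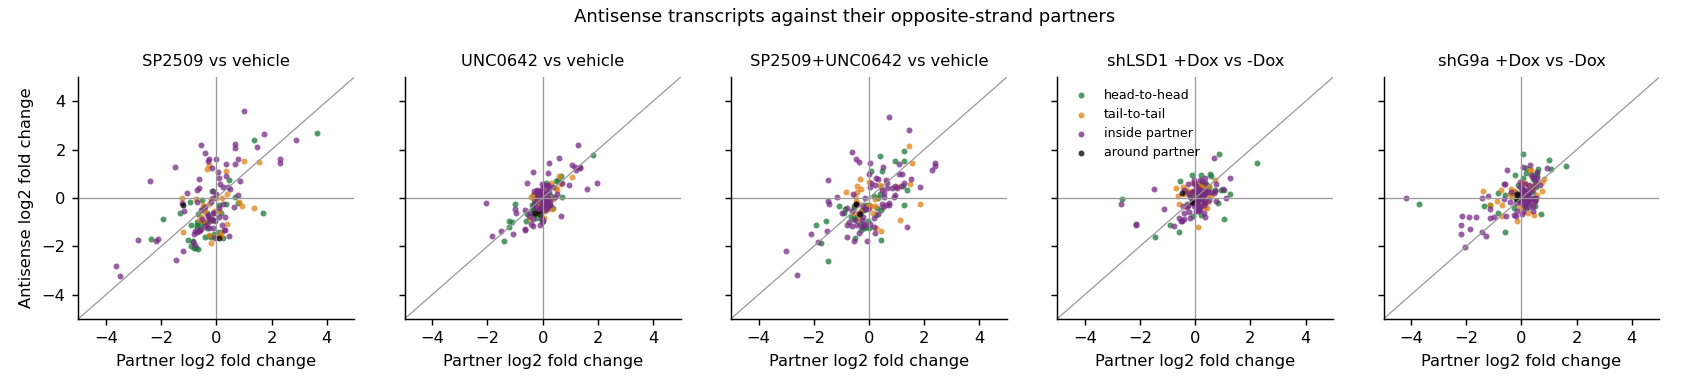
Log2 fold change of each antisense transcript (vertical axis) against that of its opposite-strand partner (horizontal axis) for 150 pairs in each comparison, coloured by arrangement, with the line of equal change. Most points lie where both genes changed the same way, with Spearman's rho between 0.36 in the shLSD1 line and 0.61 with UNC0642.

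The pairs called in opposite directions with the largest difference were looked at singly. UNC5B-AS1 went from 1.72 to 3.42 FPKM with SP2509 and to 3.52 FPKM with the combination, while UNC5B went from 34.1 to 5.70 and 11.5 FPKM. AC015849.3, in an intron of the RNA-binding protein gene TAF15, went from 8.50 to 22.3 FPKM with SP2509 and to 3.76 FPKM with the combination, and TAF15 went from 63.9 to 21.9 and 38.5 FPKM. AP000487.2, in an intron of PPFIA1, went from 0.810 to 7.27 FPKM with SP2509 while PPFIA1 went from 77.9 to 53.4 FPKM. With UNC0642, AC100810.1 went from 6.23 to 3.34 FPKM and its partner CLN8 from 1.60 to 3.11 FPKM, and with the combination to 2.15 and 5.71 FPKM. AC091729.3, head-to-head with ZFAND2A, went from 4.56 to 0.681 FPKM with the combination and ZFAND2A from 5.82 to 8.21 FPKM.

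With Dox in the shLSD1 line, AC024941.2 went from 3.20 to 1.27 FPKM and its head-to-head partner KITLG, the ligand of the receptor KIT, from 16.9 to 35.7 FPKM. AC023157.3 went from 2.21 to 4.24 FPKM and AMN1 from 1.69 to 0.858 FPKM, and SLC25A25-AS1 went from 2.15 to 3.16 FPKM and SLC25A25 from 5.64 to 3.12 FPKM. In the shG9a line, AC087392.1 went from 0.590 to 2.54 FPKM within the nucleoredoxin gene NXN, which went from 20.5 to 13.8 FPKM. AC139887.2, tail-to-tail with PCGF3, went from 2.19 to 0.953 FPKM and PCGF3 from 4.43 to 6.41 FPKM.

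Of 40 antisense RNAs with a described role that were listed for this purpose, 34 were listed in both tables and 4 were among the 225: ZFAS1, AFAP1-AS1, FAM83A-AS1 and HOTAIR. Of the others, 24 stayed under 3 FPKM, and 6 reached it under another annotated type and so were not counted here, among them TUG1 (up to 25.4 FPKM), HIF1A-AS2 (17.4 FPKM) and EPB41L4A-AS1 (16.4 FPKM). HOTAIR, which is known to bind chromatin-modifying complexes, LSD1 among their subunits, lies head-to-head with HOXC11 (chromosome 12, 53962308 to 53974956, minus strand). It had 1.84 FPKM with vehicle, against 0.410 with SP2509, 0.795 with UNC0642 and 0.250 with both, was at 1.58 and 2.26 FPKM in the shLSD1 line, where it was not called, and went from 1.07 to 3.75 FPKM with Dox in the shG9a line. HOXC11 had 2.31, 1.43, 1.25 and 2.10 FPKM with vehicle, SP2509, UNC0642 and the combination, and went from 2.38 to 4.60 FPKM and from 2.39 to 6.17 FPKM with Dox. AFAP1-AS1, tail-to-tail with the actin filament gene AFAP1, went from 15.9 to 6.90 FPKM with SP2509 and to 11.2 FPKM with UNC0642, and stood at 16.6 FPKM with the combination, where AFAP1 went from 3.42 to 2.12 FPKM. FAM83A-AS1 was at 5.52 and 7.46 FPKM in the shLSD1 line and went from 4.58 to 1.29 FPKM with Dox in the shG9a line, beside FAM83A with 35.7 and 8.96 FPKM. ZFAS1, which hosts small nucleolar RNAs, ranged from 5.48 to 11.9 FPKM and was called once, lower with UNC0642 (9.37 to 6.50 FPKM). Its partner ZNFX1 went from 7.72 to 21.8 FPKM in a different comparison, that of the combination, where ZFAS1 was not called.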

How the data were processed

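RNA from Kyse510 cells was sequenced with 1 library per condition, in pairs of 150-base reads. The authors mapped the reads to GRCh38 (Ensembl release 87) and deposited FPKM values in 2 tables of 4 columns each. The aligner, the counting tool and any use of strand are not given in the sources used here. All per-sample columns were used, and samples were grouped by their labels.

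Whole reads were recovered from the FPKM values, which fall on steps of 1 read. The reads recovered made up 99.6% to 99.8% of the library totals they gave, and where several gene lengths were possible the choice among them is uncertain. Fold change was taken between treated and control FPKM after adding 1 to each. A gene was called at a fold of at least 1.3 and an adjusted p under 0.05 (exact binomial test, two-sided, on the recovered reads, Benjamini-Hochberg adjusted over 11009 genes). With 1 library per condition this covers counting error only, so no p is printed. Read ratios have 95% Clopper-Pearson intervals. Partners and arrangement follow the deposited positions and exon overlap follows GENCODE 44. Scripts ran in Python 3.11.15 with SciPy 1.17.1 and were tested on simulated libraries.

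Named were, per comparison, the 5 called transcripts with the largest increase and the 5 with the largest decrease, up to 3 pairs called in opposite directions, the 6 highest by median, up to 5 per enzyme and direction called alike in knockdown and inhibitor, members of a list of 40 described antisense RNAs, and the 3 nearest on each side of the threshold. A transcript that this rule names is not reported here. The transcripts, their grouping and the lists were chosen with earlier results of these data known. KMT2E-AS1 and the BNIP3 transcripts were described further after their values were seen. The alternatives were a pseudocount of 0.1, a minimum of 10 FPKM, no minimum, a fold of 2, fold only, centred ratios, the fewest reads, other partner rules, and, added after the data were seen, a threshold applied in the other table only.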

Additional observations from a re-analysis of the deposited data

Results flagged for a closer look

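With Dox, 5 transcripts were called in opposite directions in the shLSD1 and shG9a lines (2.22%, beside 2.03% of all genes), while 35 were called in the same direction. The difference between the lines was not tested, since each line had 1 library with and 1 without Dox. On the log2 scale, AC105118.1 changed by -0.95 in the shLSD1 line and 1.42 in the shG9a line, on 9 and 0 reads and on 9 and 41 reads. AC139887.2, tail-to-tail with PCGF3, changed by 0.49 and -0.71, and AL139289.2, without partner, by -0.59 and 0.44. AL391427.1, in an intron of AKR1C2, changed by 0.74 and -0.78, on 22 and 42 reads and on 32 and 16 reads. KMT2E-AS1 changed by -0.74 and 0.81, on 58 and 29 reads and on 29 and 63 reads.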

How the results depend on the processing

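A stricter or absent minimum changes which transcripts are counted, and most other alternatives changed little. With a minimum of 10 FPKM (49 transcripts), higher and lower counts are given beside the shares of all genes at that minimum. They were 10 and 26 with SP2509 (20.4% and 53.1%, beside 21.6% and 35%) and 12 and 14 with UNC0642 (24.5% and 28.6%, beside 18.2% and 13.2%). With the combination they were 16 and 16 (32.65% each, beside 31.7% and 29.1%). In the shLSD1 line they were 11 and 7 (22.45% and 14.3%, beside 24.2% and 12%), and in the shG9a line 10 and 11 (20.4% and 22.45%, beside 29.7% and 20.4%). The median log2 fold change turned from -0.28 to 0.021 with the combination and was 0.043 in the shG9a line, rho in the shLSD1 line was 0.53, and 2 (LSD1, lower), 3 (G9a, higher) and 3 (G9a, lower) were called alike in knockdown and inhibitor. With no minimum (2689 genes), counts were 137 and 438, 76 and 118, 177 and 251, 118 and 61, and 191 and 57 in the same order. The share lower was then under that of all genes with SP2509 (16.3% beside 21.6%), UNC0642 (4.39% beside 7.24%) and the combination (9.33% beside 16.6%), unlike with the minimum. The share higher was under it as well (5.1% beside 9.61%, 2.83% beside 8.55% and 6.58% beside 17.2%), so antisense genes were less often called in either direction. In the shLSD1 line 4.39% were higher and 2.27% lower (beside 11.45% and 5.55%). In the shG9a line it was 7.1% and 2.12% (beside 15.8% and 8.4%). Medians were -0.063, 0.00, -0.011, 0.0013 and 0.036, rho was 0.29, 0.22, 0.31, 0.19 and 0.21, and 3 transcripts were higher in both for LSD1. At a fold of 2, 30 were higher and 82 lower with SP2509 (13.3% and 36.4%, beside 6.84% and 11.9% of all genes). It was 14 and 13 with UNC0642 (6.22% and 5.78%, beside 3.86% and 2.21%) and 36 and 42 with the combination (16% and 18.7%, beside 11.25% and 9.19%). In the shLSD1 line 5 and 8 were called (2.22% and 3.56%, beside 2.5% and 2.7%), and in the shG9a line 21 and 8 (9.33% and 3.56%, beside 4.01% and 5.9%). At that fold, 0 were alike in knockdown and inhibitor of either enzyme. By fold only, 39 were lower in the shLSD1 line (17.3%, beside 12%), 3 and 13 were alike for LSD1 and 16 and 14 for G9a.

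A pseudocount of 0.1 moved the median to -1.05 with SP2509 and -0.34 with the combination, and centring moved it to 0.029 and 0.0027 in the shLSD1 and shG9a lines. With members chosen in the other table, 13, 20 and 38 of 157 were higher with SP2509, UNC0642 and the combination. These are 8.28%, 12.7% and 24.2%, beside 16.7%, 14.8% and 26.3% of all genes chosen in that way. The shares lower were 63.1%, 23.6% and 40.8%, beside 38.6%, 14% and 31.6%. This choice leaves out transcripts that were high only with an inhibitor, which favours the shares lower. With SP2509 the median was -0.86 and rho 0.32. The fewest reads and the other partner rules moved no count, median or rho beyond these limits. Of the 5 largest changes in each direction and comparison, that of AL357992.1 in the shLSD1 line was no longer called with no minimum, and the others kept call and direction where they could be computed. These 50 changes were picked for their size in the same libraries, so keeping the call was largely given beforehand. At the minimum of 10 FPKM only 19 of them could be followed, and they were not followed with members chosen in the other table. The other named changes were not followed singly, and those under a fold of 2, such as TMEM147-AS1 with UNC0642 and AC139887.2 in the shG9a line, are not called at that threshold. No library could be left out and no paired analysis was possible because each condition has 1 library. The median transcript had 23 to 53 reads per library, which limits single low transcripts.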
